A study of Zea mays with 2 samples.

Results

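Neighbouring loci of nearly equal span were collected from 2 endosperm transcriptomes of maize (Zea mays) and compared between the rea1 mutant and wild type (WT). The members were found by position alone, without their expression. A locus of chromosomes 1 to 10 was a member if another kept locus lay within a gap of 50 kb and their spans, the distances from start to end with introns included, differed by 5% of the longer span or less. The rule kept 10940 of the 12140 listed rows, after removal of 833 rows that shared a position, 13 rows off the chromosomes and 354 loci with a span under 300 bp. Among the kept loci, 582 (5.32%) were members, joined by 315 linked pairs into 281 groups of candidate tandem copies.

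Both libraries were made from endosperm, the storage tissue of the kernel, taken 15 days after pollination, with rea1 or wild type given as genotype. Nothing else separates the groups in the labels, and the genetic background and the allele of the mutant are not stated. The series' design text mentions triplicates, but 1 file with 1 value per locus was analysed for each genotype, so that no spread between replicates and no p-value could be given. Each file is called a library here, and whether it holds 1 library, a pool or a mean is not stated. Values are FPKM, fragments per kilobase of transcript relative to the fragments mapped in the library, as the authors deposited them. The labelled tissue could not be checked by marker genes, because the loci carry no names. The gene mutated in rea1 is known as a homologue of midasin, an ATPase that acts in the maturation of the large ribosomal subunit.

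Tandem copies arise when a stretch of a chromosome is duplicated next to itself. The copies start out alike in sequence and length, and afterwards one may lose expression, or both may stay active together or in different tissues. In maize endosperm the best known tandem copies are those of the alpha zeins, storage proteins encoded by intronless genes that lie in clusters. The loci analysed here carry a position and no gene name, so none is called a zein or any other gene below. No sequence of the genome build behind the positions was at hand, and likeness in span is the only sign of copies used.

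Near-equal spans were only slightly more frequent between neighbours than other span differences, so that most groups cannot be told from neighbours that are alike in span by coincidence. Of the 7373 pairs of kept loci within 50 kb, 315 differed by up to 5% in span, 264 by more than 5 and up to 10%, 294 by up to 15% and 271 by up to 20%. The share within 5% was 4.27% at a gap of up to 50 kb, 3.42% at 50 to 100 kb and 3.0% at 500 kb to 1 Mb. Exactly equal spans stood out more. They were found for 16 near pairs (0.217%), against 7 of 35021 pairs (0.020%) at 500 kb to 1 Mb. Of these 16 pairs, 13 had a span divisible by 3, against 38.8% of all kept loci. That count depends on how starts are read. The files do not say whether starts count from 0 or from 1, and they were read as counting from 0 because spans divisible by 3 are then the most frequent, with 30.8% and 30.4% of kept loci at the other remainders. Read as counting from 1, 2 of the 16 pairs would be divisible by 3.

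**Figure D1:**
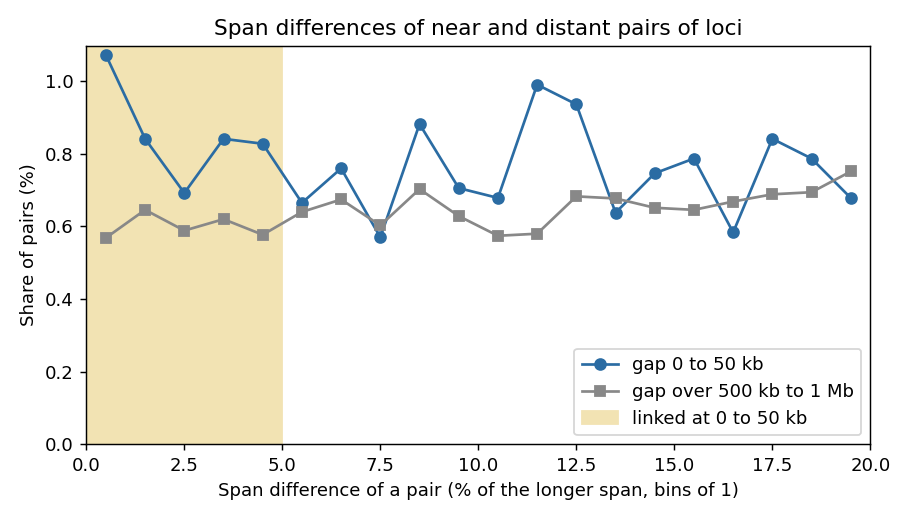
Share of all pairs of kept loci (%) by the difference in span, in bins of 1% of the longer span, for pairs at a gap of 0 to 50 kb and pairs at 500 kb to 1 Mb. The near pairs are highest in the first bin, at 1.07% against 0.568% of distant pairs, and bins past 5% reach similar heights.

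The groups were small and scattered over the genome. In total 263 groups had 2 members, 16 had 3 and 2 had 4. Members made up between 3.99% of the kept loci on chromosome 4 and 6.39% on chromosome 1. The gap between linked loci had a median of 12594 bp and ran from 5 to 49242 bp, and 90 of the 315 linked pairs were within 5 kb. No other listed row lay between the loci of 192 linked pairs (61.0%), and up to 7 rows lay between the others. Genes absent from the list may lie between them too. Member spans had a median of 2178.5 bp and ran from 339 to 10714 bp, close to the median of 2145.5 bp in the other kept loci. At the edge of the rule, the pair at a span difference of 4.99% had FPKM of 0.55 and 2.58 in WT and 1.20 and 0.58 in rea1. The first pair outside, at 5.02%, had 0.73 and 4.17 in WT and 1.35 and 5.25 in rea1.

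As a whole, the members were expressed much like other loci, and a pair of clusters on chromosome 7 held nearly all of their transcript. FPKM reached 1 in at least 1 library for 315 of the 582 members (54.1%, a number that happens to equal that of linked pairs), against 48.5% of the other kept loci. In total 100 members (17.2%) were listed at 0 in both libraries, against 22.4% of the other loci. Among the loci that reached 1 FPKM, the median level was 6.05 FPKM in WT and 5.76 in rea1 for members, and 5.54 and 5.84 for the others. The members held 57.4% of the summed FPKM of kept loci in WT and 31.4% in rea1. The 6 loci of the chromosome 7 groups made up 97.7% of the members' sum in WT and 88.2% in rea1. The other 576 members summed to 4669 FPKM in WT and 7591 in rea1, or 1.34% and 3.70% of the sum over kept loci. That sum was 348309 FPKM in WT and 205371 in rea1, so shares of it have unlike bases in the 2 libraries.

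Values of low loci rest on few fragments. The files hold no counts. Among kept loci of 1 to 3 kb with a span divisible by 3, the product of FPKM and span in kilobases, where above 0, had its lowest 2% under 0.108 for WT and 0.0858 for rea1. Taking these as single fragments, a level of 1 FPKM over 1 kb would rest on about 9.27 fragments (WT) or 11.7 (rea1), so that a 2-fold difference near 1 FPKM lies near counting error. This is a rough guide, since span is not transcript length and a file may hold pooled or averaged replicates.

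Members were higher or lower in rea1 about as often as loci in general. In whole endosperm, fewer cells of a type and less RNA per cell cannot be told apart. Differences are given as the log2 ratio of rea1 over WT after adding a pseudocount of 1 FPKM, which understates the change of low loci, and were counted at 2-fold or more where FPKM reached 1 in either library. On this count 41 of 315 members (13%) were higher in rea1, beside 11.9% of all kept loci, and 25 (7.94%) were lower, beside 8.88%. The remaining 249 lay within 2-fold. The median log2 ratio was 0.10 (95% binomial interval 0.029 to 0.17) for members and 0.099 (0.074 to 0.12) for all kept loci. These intervals describe the loci of 2 libraries, and loci are not replicates. Among the 118 members that reached 10 FPKM, 26 (22.0%) were higher and 11 (9.32%) lower, beside 16.0% and 7.10% of kept loci at that level. With rea1 scaled to a median ratio of 0 over loci with at least 10 FPKM in each library, a shift of 0.24 on the log2 scale, 25 members were higher and 34 lower. The share of higher loci among those that differed was 62.1% as deposited and 42.4% after this scaling. Scaling to a trimmed mean ratio, a shift of 0.074, gave 35 higher and 28 lower, or 55.6% higher, so the balance of directions depends on the scaling chosen. Each scaling shifts every kept locus alike. Shares over all kept loci were not recomputed after scaling, so these counts show no trait of the members.

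Direction went with level. The 4 members at a mean of 1000 FPKM or more were all at least 2-fold lower in rea1, and all 4 lay in the chromosome 7 groups. Of the 14 other kept loci at that level, 6 (42.9%) were lower and 0 higher, with a median log2 ratio of -0.58. Of 14 members at 100 to 1000 FPKM, 7 (50%) were higher and 1 (7.14%), the 722 bp locus of chromosome 7, was lower, with a median log2 ratio of 0.95. Among 164 other kept loci of that level, the share higher was 44.5%, the share lower 8.54% and the median 0.88. At 10 to 100 FPKM the median was 0.27 over 90 members and 0.24 over 1665 other loci, and at 1 to 10 FPKM it was -0.026 over 180 members and -0.0022 over 2785 other loci.

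**Figure D2:**
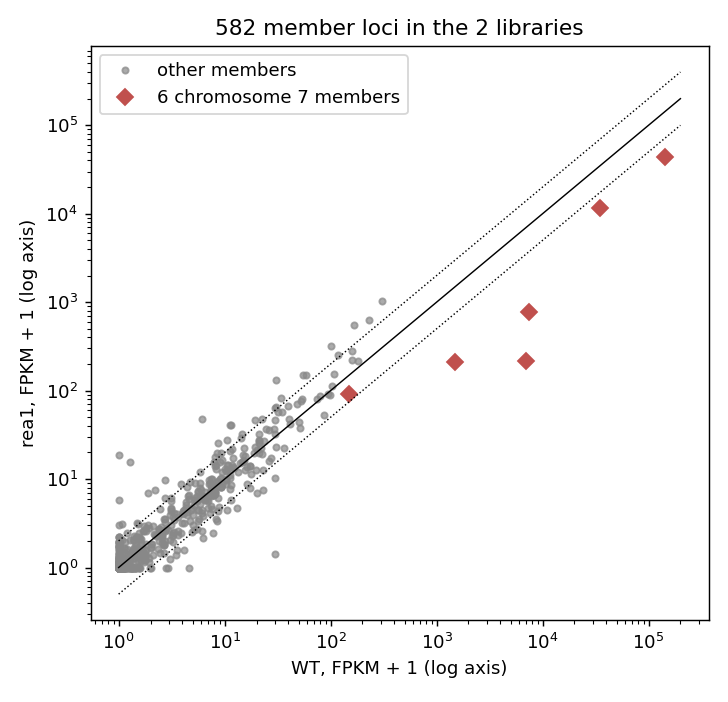
FPKM + 1 of each member in WT (x axis) and rea1 (y axis), both on log axes, with 1 point per locus. The solid line marks equal values and the dotted lines a 2-fold difference. The 6 chromosome 7 members lie below the line of equal values, and most other members lie between the dotted lines.

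The most abundant groups lay on chromosome 7, 74824 bp apart, with spans of 725 to 726 bp in one and 722 to 723 bp in the other. Their 6 loci were all lower in rea1, and the balance between the 2 most abundant loci moved more in one group than in the other. In the group from 18865424 to 18878182, the sum was 180869 FPKM (WT) and 55773 (rea1). Its loci of 723 bp, at 18865424 to 18866146 and at 18877460 to 18878182, stood at 144212 and 35152 FPKM in WT, a ratio of 4.10 between them. In rea1 they stood at 44053 and 11508 FPKM, a ratio of 3.83. The first locus held 79.7% of the group's sum in WT, and 79.0% in rea1. The locus of 722 bp between them, at 18867732 to 18868453, held 0.83% of it (WT) and 0.38% (rea1).

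In the group from 18755936 to 18790599, the sum was 14553 FPKM (WT) and 1086 (rea1). Its loci of 726 bp were nearly level in WT, at 6914 FPKM (18755936 to 18756661) and 7492 FPKM (18779575 to 18780300), a ratio of 1.08. In rea1 they had 213 and 782 FPKM, a ratio of 3.67. The first of them thus went from 47.5% of the group's sum to 19.6%, and the second from 51.5% to 72.0%. The 725 bp locus at 18789875 to 18790599 measured 148 FPKM (WT) and 90.8 (rea1), and its share went from 1.01% to 8.36%. The 4 loci of 723 and 726 bp were the 4 most abundant of the 6 in WT. In rea1 the lowest of them, at 213 FPKM, was nearly level with the 722 bp locus, at 212 FPKM. How the authors' program divided fragments between like loci is not stated, so the values of single loci are less certain than the group sums.

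**Figure D3:**
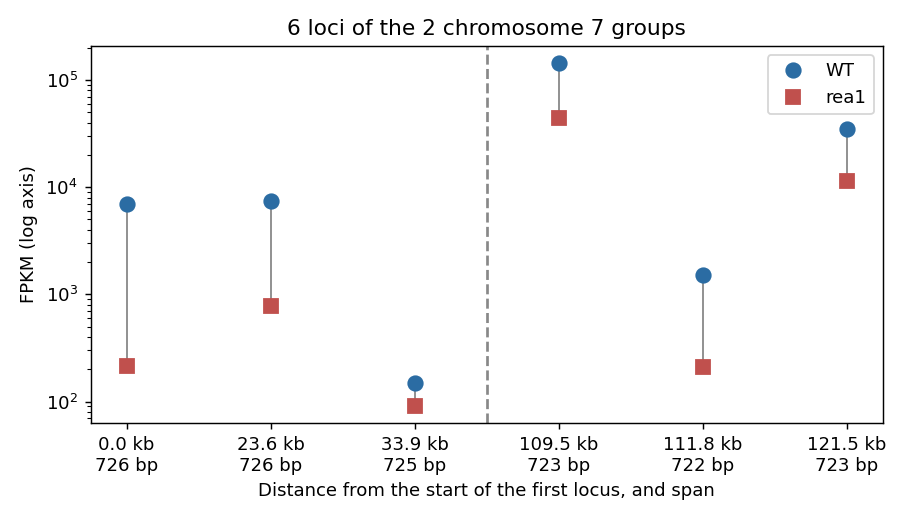
FPKM on a log axis for the 6 loci of the chromosome 7 groups in WT (circles) and rea1 (squares), ordered by distance from the first locus, with spans below. The dashed line separates the groups. WT is above rea1 at all 6 loci, and the distance between the symbols is widest at the first locus (6914 and 213 FPKM) and narrowest at the third (148 and 90.8 FPKM).

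Outside chromosome 7, the groups with the highest summed FPKM were higher in rea1. Of the 6 such groups that complete the 8 most abundant, 4 were more than 2-fold higher and 2 were higher by less. The mean sum of each lay between 100 and 1000 FPKM. Of the other kept loci with a mean in that range, 44.5% were 2-fold or more higher, with a median log2 ratio of 0.88. Being higher in rea1 is thus not particular to these groups. On chromosome 4 both loci of a pair were high. The locus at 128289717 to 128292060 measured 166 FPKM (WT) and 546 (rea1), and its partner at 128321482 to 128323867 had 57.1 and 148. The loci differed 3.30-fold and 2.60-fold between the libraries, so that they moved together, and the first stayed the more abundant.

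In 3 groups, by contrast, 1 locus carried nearly all of the sum and its partner was close to silent in both libraries. On chromosome 2 the locus at 10483475 to 10486040 measured 306 FPKM (WT) and 1036 (rea1), while the partner at 10518985 to 10521474 was listed at 0 in WT and had 0.12 FPKM in rea1. On chromosome 3 the locus at 17832286 to 17836567 measured 229 FPKM (WT) and 626 (rea1), and its partner at 17838008 to 17842094 had 0.78 and 0.23. On chromosome 9 the locus at 117455636 to 117456281 measured 160 FPKM (WT) and 278 (rea1), while the partner at 117430018 to 117430671 had 0.32 FPKM in WT and was listed at 0 in rea1. The remaining groups were intermediate. On chromosome 5 the locus at 3431110 to 3432691 measured 99.8 FPKM (WT) and 315 (rea1), whereas its neighbour at 3428187 to 3429834 had 7.10 and 6.20. On chromosome 8 the locus at 14391800 to 14395986 measured 157 FPKM (WT) and 223 (rea1), and its partner at 14347502 to 14351772 had 7.13 and 16.6.

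Summed over each group, more groups were higher than lower in rea1. Summed FPKM reached 1 in 203 groups, of which 28 (13.8%) were 2-fold or more higher, 9 (4.43%) lower and 166 within 2-fold. Groups hold up to 4 loci, so pairs are the closer comparison, although pairs may share loci. Among 230 linked pairs whose sum reached 1 FPKM, 13.5% were higher and 6.09% lower. Near pairs of unlike span, summed as pairs, were higher in 11.1% of 5501 pairs and lower in 6.80%. Pairs alike in span but 500 kb to 1 Mb apart were higher in 13.3% and lower in 4.94%. With the median ratio scaled to 0, 18 groups were higher and 17 lower, or 51.4% higher in place of 75.7%. With the trimmed mean scaling, 26 were higher and 9 lower, or 74.3% higher. Pairs of unlike span were not recounted after scaling.

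In each of the groups with the 3 highest log2 ratios of summed FPKM, among those that reached 10 FPKM, 1 locus carried most of the sum in rea1. This order holds at a pseudocount of 1 FPKM. With 10 FPKM added instead, the first of them, on chromosome 9, and the second, on chromosome 1, both fell below the 1.87 of the third and the 1.70 of the chromosome 2 group that comes next, the second to 1.20. On chromosome 9 the group from 98988777 to 98991228 was listed at 0 in WT at both loci. In rea1 its 360 bp locus, at 98988777 to 98989136, had 17.5 FPKM and its 348 bp locus, at 98990881 to 98991228, had 0.76. On chromosome 1 the middle of 3 loci, at 74271511 to 74272239, measured 0.28 FPKM (WT) and 14.7 (rea1). Of its neighbours, the one at 74243390 to 74244093 measured 0.81 FPKM (WT) and 0.83 (rea1), and the one at 74287521 to 74288236 was listed at 0 in both. Also on chromosome 1, the 1056 bp locus at 134054808 to 134055863 measured 5.12 FPKM (WT) and 47.0 (rea1). Its partner of 1060 bp, at 134069865 to 134070924, had 1.44 and 3.60 FPKM, so that the first locus held 78.1% of the sum in WT and 92.9% in rea1.

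The next groups in this order were on chromosomes 2, 5 and 3. On chromosome 2 the locus at 234103378 to 234106002 measured 29.9 FPKM (WT) and 131 (rea1), its neighbour at 234098536 to 234101050 measured 8.09 and 14.8, and the third locus, at 234072317 to 234074784, had 0 and 0.31. On chromosome 5 the locus at 208118330 to 208119808 measured 10.3 FPKM (WT) and 40.0 (rea1), between neighbours at 208113971 to 208115392 and 208149545 to 208151035 that were listed at 0 in both libraries. On chromosome 3 both loci were higher. The locus at 210588269 to 210590012 measured 10.4 FPKM (WT) and 39.7 (rea1), and that at 210617226 to 210619029 had 7.67 and 24.8.

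On the lower side, among groups that reached 10 FPKM, differences were smaller after the chromosome 7 groups. On chromosome 1 the locus at 183584834 to 183588867 measured 12.2 FPKM (WT) and 3.72 (rea1), with a partner at 183561851 to 183565727 of 0.54 and 0.18. The locus at 268963256 to 268964062 of the same chromosome measured 19.0 FPKM (WT) and 6.04 (rea1), and its partner at 269004259 to 269005066 had 0 and 0.19. On chromosome 4 both loci of a pair were lower, at 7.32 FPKM (WT) and 2.51 (rea1) for 68091835 to 68093206 and at 10.5 and 4.83 for 68093708 to 68095030. On chromosome 2 the sum of a pair was within 2-fold as deposited, at a log2 ratio of -0.87, but past it, at -1.10, with the median ratio scaled to 0. Its locus at 108131703 to 108133245 measured 16.3 FPKM (WT) and 6.87 (rea1), and its partner at 108160443 to 108161988 had 4.87 and 4.23. With the pseudocount raised to 10 FPKM, the first 3 of these groups were also within 2-fold.

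The 2 groups with 4 members were of moderate or low level. On chromosome 5, between 4651758 and 4688560, FPKM in WT was 1.39, 22.3, 11.1 and 4.90 along the chromosome, and in rea1 it was 0.99, 6.44, 16.4 and 6.96. The second locus, at 4657201 to 4660880, was therefore the most abundant in WT and was 3.46-fold lower in rea1, where the third, at 4665570 to 4669406, took first place. The sum of the group differed by less than 2-fold, at 39.7 FPKM in WT and 30.8 in rea1. On chromosome 9, between 107303818 and 107366770, 3 of the 4 loci were listed at 0 in both libraries, and the second in order measured 1.03 FPKM (WT) and 0.70 (rea1).

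Both loci were expressed more often in linked pairs than in neighbours of unlike span, and exactly 1 of them less often. Both loci reached 1 FPKM in 122 of 315 linked pairs (38.7%, 95% Wilson interval 33.5 to 44.2), against 2115 of 7058 near pairs of unlike span (30%, 28.9 to 31.0). Exactly 1 locus reached 1 FPKM in 103 linked pairs (32.7%, 27.8 to 38.1), against 3277 unlike pairs (46.4%, 45.3 to 47.6). Among near pairs whose spans differed by more than 5 and up to 20%, this share was 42.6% (39.3 to 46.0), and among pairs alike in span but 500 kb to 1 Mb apart it was 45.5% (42.5 to 48.5). Pairs share loci, so these intervals may be too narrow, and they say nothing of other libraries. Neither locus reached 1 FPKM in 28.6% of linked pairs and in 23.6% of unlike pairs. Among the near pairs whose spans differed by more than 5 and up to 10%, that share was 29.9%. Both loci were listed at 0 in both libraries in 24 linked pairs (7.62%) and in 4.11% of unlike pairs, but also in 7.95% of the near pairs differing by more than 5 and up to 10%. Shared silence thus did not set the linked pairs apart.

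**Figure D4:**
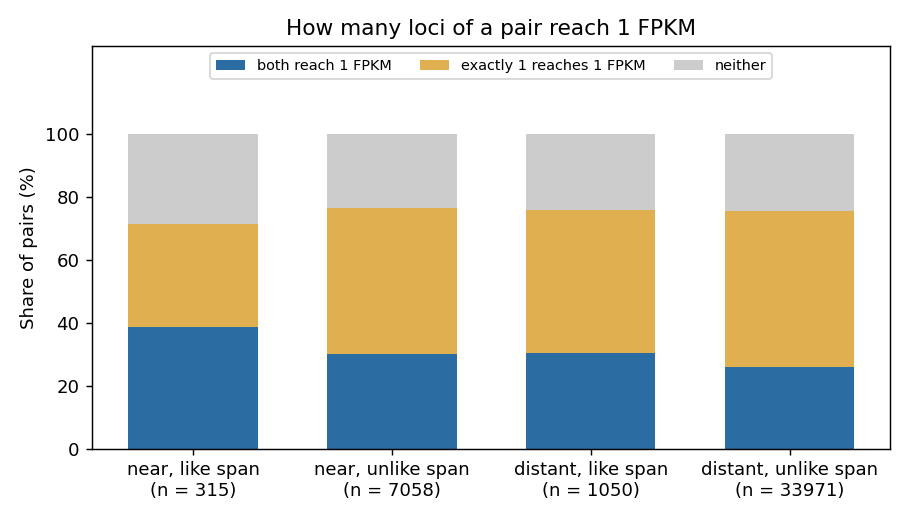
Share of pairs (%) in which both loci, exactly 1 locus or neither reached 1 FPKM in either library, for pairs at a gap of up to 50 kb (near) or 500 kb to 1 Mb (distant), with spans within 5% (like) or not (unlike). Exactly 1 locus reached 1 FPKM in 32.7% of near pairs of like span and in 45.5% to 49.5% of the other classes.

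Among classes of span difference, both loci were expressed most often in the closest spans other than equal ones. Of 63 pairs that differed by more than 0 and up to 1%, both loci reached 1 FPKM in 36 (57.1%, 44.9 to 68.6), against 84 of 236 (35.6%, 29.8 to 41.9) at more than 1 and up to 5%. The gap went with this state too. Both loci reached 1 FPKM in 50% (39.9 to 60.1) of 90 linked pairs at a gap of 5 kb or less, against 34.2% (28.3 to 40.6) of 225 at wider gaps. The classes of span were not matched for gap, and the part of each was not tested. Of the 16 pairs of exactly equal span, neither locus reached 1 FPKM in 11. Both reached it in 2 pairs, which are those of chromosome 7 described above. In the other 3 pairs, 1 locus reached it. On chromosome 1 the loci of 3873 bp at 74737125 to 74740997 and 74746727 to 74750599 had 5.16 and 0.36 FPKM in WT and 3.5 and 0.37 in rea1. On chromosome 9 the loci of 558 bp at 149918412 to 149918969 and 149926893 to 149927450 had 1.73 and 0.37 in WT and 5.04 and 0 in rea1. On chromosome 10 the first locus of 1119 bp, at 135154715 to 135155833, measured 28.1 FPKM (WT) and 35.9 (rea1), and the second, at 135199335 to 135200453, was listed at 0 in both. No linked pair had the same FPKM above 0 at both loci in either library.

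Where both loci of a pair were expressed, their levels were nearly as unlike as those of other neighbours. Over the 122 linked pairs in which each locus reached 1 FPKM in at least 1 library, and may lie below it in the other, the median level difference on the log2(FPKM + 1) scale was 1.23 in WT (95% binomial interval 0.97 to 1.54) and 1.26 in rea1. Over the 2115 unlike pairs it was 1.47 (1.37 to 1.55) and 1.57. The difference between the log2 ratios of the 2 loci had a median of 0.66 (0.48 to 0.74) in linked pairs and 0.68 (0.64 to 0.71) in unlike pairs. It was 1 or more in 37 linked pairs (30.3%) and in 32.0% of unlike pairs. The intervals overlap, but they were taken over pairs that share loci, and whether the 2 kinds of pairs differ in this measure was not tested.

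One locus usually led its group in both libraries. Of the 108 groups whose sum reached 10 FPKM, the chromosome 9 group listed at 0 in WT had no leading locus there. Over the other 107 in WT, and all 108 in rea1, the most abundant locus held a median of 82.6% and 89.7% of the sum, and it was the same locus in 95 of 107. Such a lead was less marked in linked pairs than in other neighbours. Over pairs whose sum reached 10 FPKM, the leading locus held a median of 84.2% (WT) and 89.8% (rea1) in linked pairs, beside 95.7% and 96.5% in near pairs of unlike span. Among the 203 groups that reached 1 FPKM, 5 were listed at 0 in WT at each locus, and in the remaining 198 the leading locus was the same in 172. Among linked pairs in which each locus reached 1 FPKM in at least 1 library, the order of the loci changed in 20 of 122 (16.4%), against 15.3% of unlike pairs.

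Pairs in which both loci differed by 2-fold were few. There were 7 with the same direction and 1 with opposite directions among the 122 linked pairs. Among 2115 unlike pairs there were 49 (2.32%) and 26 (1.23%). Without the chromosome 7 groups, 3 of 116 linked pairs had the same direction and 1 had opposite directions. Of the 7, 4 lay in the chromosome 7 groups, and those on chromosomes 3 and 4 are given above. The last was on chromosome 10, where the locus at 5388541 to 5390606 measured 0.067 FPKM (WT) and 2.07 (rea1), and its partner at 5402258 to 5404421 had 0.19 and 1.44. Both of these loci reached 1 FPKM only in rea1, and by the rough guide above their WT values rest on few fragments. The opposite pair was on chromosome 6. Its locus at 165516914 to 165518066 measured 21.4 FPKM (WT) and 46.7 (rea1), and its partner at 165558210 to 165559415 had 2.05 and 0.25. No group held loci that both reached 10 FPKM and differed 2-fold in opposite directions.

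The following pairs were chosen after their values were seen, as examples of unlike and like behaviour. The widest split of a pair was on chromosome 9, where 2 loci 1417 bp apart had similar levels in WT. The locus at 123079301 to 123083985 measured 29.0 FPKM (WT) and 0.44 (rea1), while its neighbour at 123085403 to 123089976 had 33.8 and 56.5. On chromosome 1 the locus at 246522903 to 246527409 measured 28.7 FPKM (WT) and 9.20 (rea1), and its neighbour at 246529588 to 246534211 had 8.35 and 11.2, so that their order was exchanged. On chromosome 5 the locus at 196301608 to 196303357 measured 9.60 FPKM (WT) and 26.4 (rea1), and the other, at 196331063 to 196332805, had 4.71 and 2.56.

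Other groups kept the balance between their loci in both libraries. On chromosome 9 the loci at 17820821 to 17823529 and 17823760 to 17826493 had 29.2 and 12.9 FPKM in WT and 31.1 and 14.1 in rea1, a ratio between the loci of 2.26 and 2.21. On chromosome 10 a group of 3, from 134434838 to 134459390, had 9.36, 7.17 and 8.16 FPKM in WT and 8.81, 5.95 and 7.05 in rea1, with the same order in both. On chromosome 4 the loci of 1055 and 1054 bp, at 1931229 to 1932283 and 1937938 to 1938991, had 2.13 and 2.14 FPKM in WT and 5.17 and 4.63 in rea1, so that both were higher by similar amounts.

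**Figure D5:**
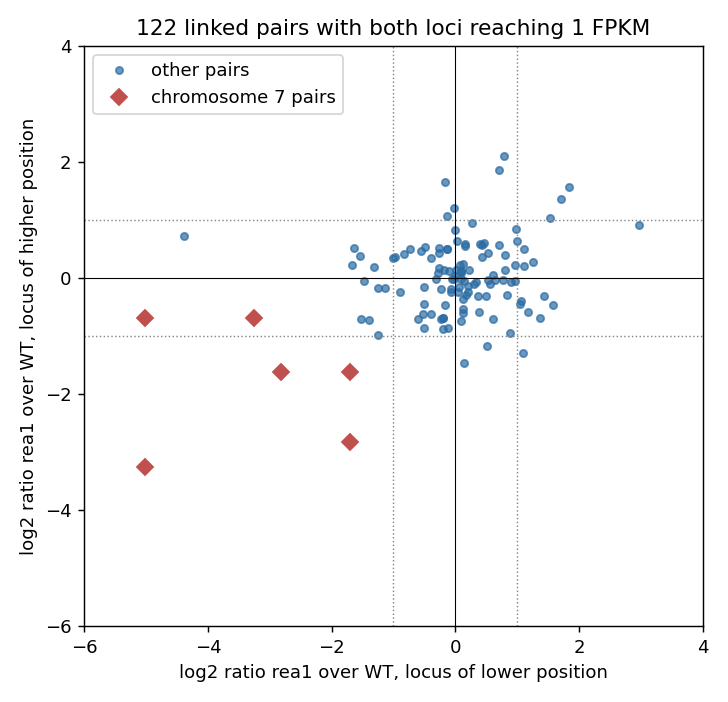
Log2 ratio of rea1 over WT for the locus of lower position (x axis) and of higher position (y axis), with 1 point for each of the 122 linked pairs in which each locus reached 1 FPKM in at least 1 library. Dotted lines mark 2-fold. The pairs of the chromosome 7 groups lie at the lower left, 1 pair lies past 2-fold in opposite directions, and most others lie around 0.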

How the data were processed

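RNA was sequenced from endosperm of rea1 and WT kernels, and 1 file per genotype was analysed. Per the file headers, the authors deposited FPKM per position. Bowtie 0.12.2 appears in the submitters' processing notes. The FPKM program, genome build, annotation, filters, pooling of replicates and read depth are not stated there. The gene table at hand belongs to another assembly, and 0 rows matched a gene of it in start and end, so no gene is named. Deposited starts were taken as 0-based, a choice made from the excess of spans divisible by 3, and 1 was added to each for printing; positions belong to the unstated build. Where the text gives a span, it is end minus start as deposited.

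Loci were linked and joined by position as described. Log2 ratios used a pseudocount of 1 FPKM, a threshold of 2-fold and a minimum of 1 FPKM. Intervals of medians are binomial and those of shares are Wilson, at 95%. Named groups were the 8 with the highest mean sum, the 6 highest and 6 lowest log2 ratios at 10 FPKM, and the 5 with the most members, ties going to the higher sum. Opposite pairs at 10 FPKM and pairs of equal FPKM were also to be named. Classes of level, of span difference and of distant pairs were added after seeing the data. Members, lists and rules were chosen with earlier results of these data known. The linking and calling code was tested on simulated data. The versions were scipy 1.17.1, numpy 2.4.6, matplotlib 3.10.9 and pandas 2.3.3, under Python 3.11.15.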

Additional observations from a re-analysis of the deposited data

How the results depend on the processing

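Counts of members and groups by direction were recomputed with other pseudocounts, scalings, filters, thresholds and linking limits. Counts over all kept loci were recomputed only with the minimum of 10 FPKM. The median log2 ratio of members had the same settings except the thresholds. Shares of summed FPKM and groups led by the same locus were recomputed with other linking limits, and named groups with other pseudocounts and scalings. So, with other linking limits, were the median differences in WT level and in log2 ratio within linked and unlike pairs. The share of linked pairs with exactly 1 locus reaching 1 FPKM lay between 28.1% (gaps of up to 10 kb) and 37.3% (spans within 10%). That share of unlike pairs was not recomputed, and the minimum of 1 FPKM was not varied for pairs. The share of linked pairs in which both loci reached 1 FPKM was recomputed only without the chromosome 7 groups, at 37.5%, and the results by level and by class of span difference were not recomputed. The numbers of members higher and lower in rea1, 41 and 25, became 63 and 38 with a pseudocount of 0.1 FPKM, 14 and 7 with 10 FPKM, 73 and 55 at 1.5-fold, 5 and 5 at 4-fold, and 26 and 11 with a minimum of 10 FPKM. They were 25 and 34 with the median ratio scaled to 0, 17 and 16 with gaps of up to 10 kb, 58 and 38 up to 100 kb, 17 and 15 with spans within 2%, and 61 and 44 within 10%. The numbers of groups, 28 and 9, became 46 and 29 at 1.5-fold, 4 and 2 at 4-fold, 12 and 2 with a pseudocount of 10 FPKM, and 17 and 5 with a minimum of 10 FPKM. They were 18 and 17 with the median ratio scaled to 0, 14 higher with gaps of up to 10 kb, 12 higher with spans within 2%, 48 and 23 within 10%, and 14 and 15 lower with a pseudocount of 0.1 FPKM and with gaps of up to 100 kb. Groups led by the same locus in both libraries, 172 at first, numbered 83 with gaps of up to 10 kb, 84 with spans within 2% and 299 within 10%. Wider or narrower linking changes the number of members itself, from 582 to between 270 and 1019.

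The single group with opposite directions became 5 at 1.5-fold, 3 with a pseudocount of 0.1 FPKM and 2 with gaps of up to 100 kb. It became 0 at 4-fold, with gaps of up to 10 kb, with spans within 2%, with the median ratio scaled to 0, with a minimum of 10 FPKM and with a pseudocount of 10 FPKM. The median log2 ratio of members turned from 0.10 to -0.12 with the median ratio scaled to 0, a setting that subtracts 0.24 from ratios of well-expressed loci. It was 0.27 with a minimum of 10 FPKM, and 0 with no filter, which adds loci at 0. The members' share of summed FPKM fell to 27.4% in WT and 12.6% in rea1 without the most abundant kept locus of each library. Without the chromosome 7 groups, an alternative added after seeing the data, it was 3.05% of the remaining sum in WT and 5.11% in rea1, while 41 members were higher and 20 lower.

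Among pairs, the median difference of log2 ratios was 0.74 in linked pairs at gaps of up to 10 kb, and 0.63 in unlike pairs limited to 20% in span difference, also added after seeing the data. The median level difference of linked pairs in WT was 1.66 with spans within 2%, above the 1.44 of unlike pairs at that setting. The smaller level difference at 5% thus did not hold there. The cause was not tested. No paired analysis was possible because only 1 file stands for rea1 and 1 for WT, and none could be left out. Depth limits ratios near 1 FPKM.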
